A study of Mus musculus and Acomys cahirinus with 84 samples.

Results

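The 10 genes described here encode the transcriptional coactivators YAP (Yap1) and TAZ (Wwtr1), their DNA-binding partner TEAD1 (Tead1), and widely used targets or regulators of these proteins: Ccn1, Ccn2, Ankrd1, Amotl2, Ajuba, Lats2 and Axl. They were chosen by symbol, with earlier results of these data known. All 10 were found among 56980 mouse gene identifiers and again among 19818 gene names of the African spiny mouse *Acomys cahirinus*, and all 10 passed the expression filter in every comparison. Poly(A) RNA was sequenced from cultured primary skin fibroblasts of 3 populations, namely mice labelled C56BL6, wild mice and *A. cahirinus*. Each population gave 7 groups of 4 libraries. At both 24 h and 12 d there were groups with no irradiation, with 10 Gy and with 20 Gy of gamma rays, and 12 d had a further group of untreated cells labelled as passaged. Ages, sexes and passage numbers are not given in the labels used here. Library names carry 4 animal codes per population that recur in every group, so libraries with the same number were taken as cultures of the same animal (an exception in wild mice is given with the library values), and p-values measure the spread between these cultures. The labels put all 24 h libraries in 1 batch and all 12 d libraries in another. A difference between the 2 times therefore cannot be told apart from one between batches, and none was tested.

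In the Hippo pathway the MST kinases activate the LATS kinases, which phosphorylate YAP and TAZ and keep them out of the nucleus. Unphosphorylated YAP and TAZ enter the nucleus, bind TEAD factors and raise transcription of targets such as Ccn1 and Ccn2. In fibroblasts the pathway is known for its response to cell density, spreading and the stiffness of the substrate. Much of this control acts on the proteins, so mRNA levels of Yap1 and Wwtr1 do not measure YAP and TAZ activity.

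TEAD factors recognise the core sequence CATTCC, which reads GGAATG on the other strand. Both spellings were searched in RefSeq promoter windows of 300 bases (250 before and 50 after a start site, build GRCm38.p6). Of the 10 genes, 8 had an entry, and each of the 8 held a match in at least 1 window, against 16.6% of 27025 genes and 14.7% of 32851 windows in the same table. Because the list holds widely used targets of these proteins, this share does not test for enrichment. Ccn2 and Tead1 were not among the entries used here. Matches began 103 bases before the start site in Ccn1 (minus strand), 210 and 123 bases before it in Ankrd1 (minus strand), and 65 bases before it in Amotl2 (plus strand). The 250 bases before the start site are shown for these 3 targets because the 24 h results below turn on them. Capitals mark the matches, and each sequence reads 5′ to 3′ along the gene. The windows are chr3:145649986-145650235 for Ccn1, chr19:36119845-36120094 for Ankrd1 and chr9:102717554-102717803 for Amotl2.
Ccn1: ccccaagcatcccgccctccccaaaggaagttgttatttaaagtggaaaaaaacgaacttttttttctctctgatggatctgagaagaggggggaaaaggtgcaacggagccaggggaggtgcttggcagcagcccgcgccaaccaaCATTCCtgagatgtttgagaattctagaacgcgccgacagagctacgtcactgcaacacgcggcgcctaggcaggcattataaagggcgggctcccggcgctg
Ankrd1: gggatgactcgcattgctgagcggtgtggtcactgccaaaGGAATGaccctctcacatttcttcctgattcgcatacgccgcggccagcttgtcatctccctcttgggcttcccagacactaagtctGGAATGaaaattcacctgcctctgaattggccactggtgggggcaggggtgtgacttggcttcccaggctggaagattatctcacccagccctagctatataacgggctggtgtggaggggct
Amotl2: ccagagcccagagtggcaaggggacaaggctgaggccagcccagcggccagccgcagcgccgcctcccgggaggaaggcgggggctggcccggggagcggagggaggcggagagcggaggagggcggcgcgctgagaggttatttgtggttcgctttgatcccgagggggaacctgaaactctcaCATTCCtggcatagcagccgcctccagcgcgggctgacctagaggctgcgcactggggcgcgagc
A match describes the letters of the window and does not show that a factor binds there.

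Library totals ranged from 17.42 to 52.86 M counts. Of 8 fibroblast markers, 7 were above 1 CPM (counts per M counts of the library, after TMM scaling) in the median library of both mouse populations (all but Lum), and all 8 in *A. cahirinus*. Muscle markers (Myod1, Myog, Des, Myf5 and Pax7) summed to between 519 and 2720 CPM in the *A. cahirinus* libraries, lowest in replicate 2 of every group. Keratinocyte markers summed to between 193 and 834 CPM in C56BL6 replicate 1 and to at most 3.95 CPM in the other C56BL6 libraries. In wild mice the libraries labelled replicate 1 at 12 d did not match replicate 1 at 24 h: 17 genes were at or above 1 CPM in all libraries of one and had no count in the other. The same libraries differed from replicate 4 at 24 h in 0 genes, and each other number in the 3 populations differed from itself across times in 0 genes. At 12 d, wild replicates 1 and 4 also differed from each other in 0 genes, against 7 to 23 for the other 5 pairs of numbers. A count of 0 does not by itself mark 1 animal, since C56BL6 replicates 3 and 4 and all 6 pairs of *A. cahirinus* numbers also gave 0 at 12 d, and whether the 4 wild libraries of a 12 d group come from 4 animals cannot be told from these data. Wild 12 d results are therefore also given without replicate 1, and these libraries are called by their label.

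Levels of different genes were compared per kb of gene length in untreated cells at 24 h. The secreted matricellular proteins led in C56BL6 mice, with Ccn2 at 908 ± 118 (SD, n = 4) and Ccn1 at 743 ± 40.9 CPM per kb, whose libraries overlapped. Axl, a receptor tyrosine kinase, followed at 325 ± 34.5 CPM per kb with no overlap with its neighbours in the order. Amotl2, a scaffold that binds YAP, and Ankrd1, a nuclear ankyrin-repeat protein, stood at 113 ± 25.9 and 88.2 ± 32 CPM per kb and overlapped. Tead1 (39.8 ± 3.95), Wwtr1 (31.2 ± 3.64), Yap1 (30.9 ± 4.21), the LIM adaptor Ajuba (20.5 ± 5.58) and the kinase Lats2 (13.8 ± 2.72 CPM per kb) completed the order, and neighbours from Wwtr1 to Lats2 overlapped. Wild mice had the same order except that Ankrd1 (180 ± 73.7 CPM per kb) stood above Amotl2 (138 ± 32.5 CPM per kb), with overlapping libraries. In *A. cahirinus* Ankrd1 came first at 884 ± 116 CPM per kb, followed by Ccn2 at 813 ± 332 and Ccn1 at 605 ± 148 CPM per kb, and these 3 overlapped in order. Yap1 stood last but 1 there, at 18.3 ± 1.08 CPM per kb, below Wwtr1 at 32.7 ± 4.59 CPM per kb and without overlap. Levels were not tested between species, since the 2 tables rest on different annotations.

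**Figure D1:**
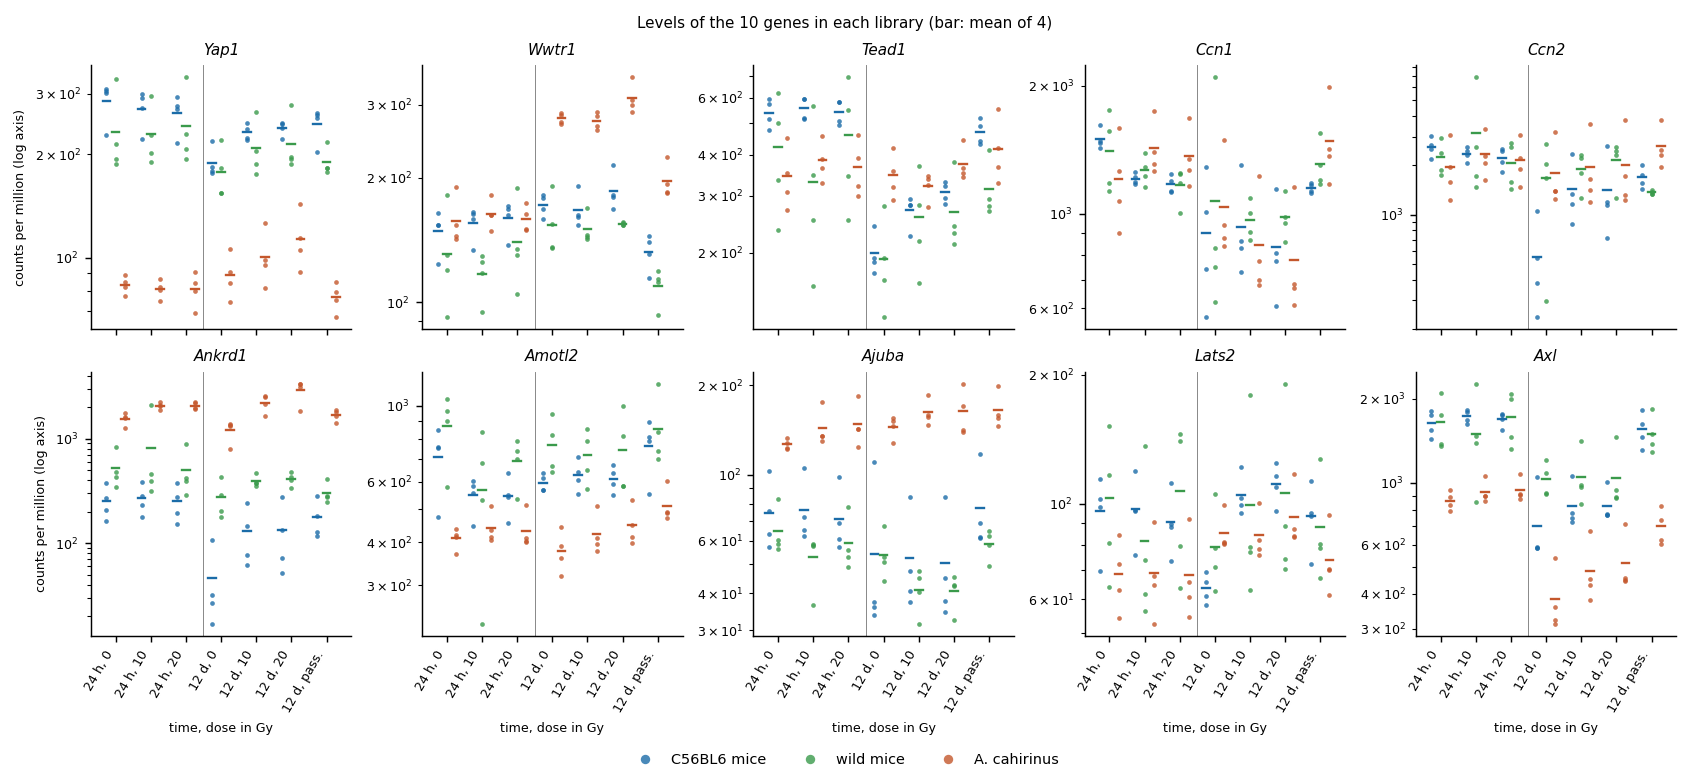
Levels of the 10 genes in each of the 84 libraries, in CPM on a log axis, by time and dose in Gy (pass.: untreated passaged). Points are libraries and bars are means of 4; the vertical line separates the 24 h from the 12 d libraries, which differ in batch. Ankrd1 in C56BL6 mice runs from a mean of 46.06 CPM in untreated 12 d cells to 270.5 CPM in 10 Gy 24 h cells.

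Between untreated wild and C56BL6 cells at 24 h, 0 of the 10 genes passed edgeR's quasi-likelihood test at an adjusted p of 0.05 (Benjamini-Hochberg over all 14317 genes tested), where 5.7% of all genes were called. At an unadjusted p under 0.05 there was 1 member, and DESeq2 called 1, Ankrd1 in both cases. Ankrd1 was at 376.8, 269.6, 208.1 and 164.1 CPM in the C56BL6 libraries and at 826.7, 430, 477.7 and 342.1 CPM in the wild ones, so the groups overlapped only between C56BL6 replicate 1 and wild replicate 4. The log2 fold change was 1.04 ± 0.34 (SE, edgeR adjusted p = 0.12, DESeq2 adjusted p = 0.023). Muscle markers summed to 933 and 399 CPM in wild replicates 1 and 3, nearly all of it Des, and to at most 45.7 CPM in each C56BL6 library, and their part in this difference was not tested. Without replicate 1 of both populations, Yap1 alone was called (log2 fold change -0.63, edgeR adjusted p = 0.0211, background 4.33%).

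At 24 h, Ccn1 and Amotl2 were lower after 20 Gy in every C56BL6 culture, and Ankrd1 and Ccn1 were higher in every *A. cahirinus* culture, and the fitted log2 fold change of each was less than 0.5 in size. In C56BL6 cells Ccn1, whose product is an integrin ligand, was at 1433, 1482, 1620 and 1467 CPM untreated and at 1243, 1127, 1196 and 1130 CPM after 20 Gy. Every irradiated library lay below every untreated one. The log2 fold change was -0.35 ± 0.07 (SE), with an edgeR adjusted p of 0.153. Once the replicate number entered the model as a block, which compares each culture with itself, the edgeR adjusted p was 0.000392, and DESeq2 gave 0.000308. Throughout, sizes and standard errors are of the fit without a block unless stated, also beside an adjusted p with the block. Fits that leave out a replicate number give sizes of their own. Amotl2 was lower in 4 of 4 pairs (-0.37 ± 0.18, adjusted p = 0.56 without and 0.00225 with the block), from 473.1, 758.6, 755 and 848.3 CPM to 455.1, 549, 542.8 and 635.9 CPM. Its groups overlapped, and replicate 1, the culture with keratinocyte markers, moved least. Ccn2, which encodes connective tissue growth factor, was lower in 4 of 4 pairs (log2 fold change -0.21 ± 0.13, adjusted p = 0.674 without and 0.0071 with the block).

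In count, 0 of 10 genes passed in C56BL6 cells without the block (background 0.0895%, 1 member at an unadjusted p under 0.05, 1 by DESeq2) and 3 passed with it, all lower (background 17.6%). In a fit added after the data were seen, with the block and without replicate 1, 3 genes were again called (Ccn1 -0.40, Ccn2 -0.25 and Amotl2 -0.45, background 21.8%). Detected genes numbered 20989 to 21852 untreated and 22337 to 23666 after 20 Gy, and the part of this shift was not tested. After 10 Gy the counts were 0 without the block (background 0.007%, 1 at an unadjusted p under 0.05, 1 by DESeq2) and 2 with it (background 11.5%). These were Ccn1 (-0.30 in both fits, edgeR adjusted p = 0.00306 with the block) and Amotl2 (-0.37 without and -0.34 with the block, edgeR adjusted p = 0.00845 with it). With the block and without replicate 1, 5 were called after 10 Gy (background 23.7%): Ccn1 (-0.33), Ccn2 (-0.13) and Amotl2 (-0.43) were lower, and Ankrd1 (0.13, adjusted p = 0.0193) and Axl (0.12, adjusted p = 0.0456) were higher. Because bulk RNA was measured, fewer cells of a type and less RNA per cell cannot be told apart in any of these values.

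In *A. cahirinus*, Ankrd1 was at 1593, 1745, 1592 and 1263 CPM untreated and at 2236, 1924, 2171 and 1952 CPM after 20 Gy, with no overlap. It was higher in 4 of 4 pairs (log2 fold change 0.43 ± 0.11, edgeR adjusted p = 0.0763 without and 0.00218 with the block). Replicate 2, which had the lowest muscle marker sum, had the highest untreated and the lowest 20 Gy level of Ankrd1. Muscle markers summed to 592 to 1510 CPM in the untreated and 774 to 1690 CPM in the 20 Gy libraries, and their part in the Ankrd1 difference was not tested. Endothelial (0.583 to 0.723 and 1.02 to 1.73 CPM) and leukocyte marker sums (2.34 to 2.97 and 3.31 to 4.2 CPM) were higher after 20 Gy without overlap, and their part was not tested. Ccn1 (0.19 ± 0.18, adjusted p = 0.672 without and 0.0315 with the block) and Ccn2 (0.15 ± 0.30, adjusted p = 0.862 without and 0.0443 with the block) were higher in 4 and 3 of 4 pairs. Without the block 0 of 10 genes passed (background 3.59%, 1 member at an unadjusted p under 0.05, 1 by DESeq2), and with it 3 did, all higher (background 24.1%). Leaving out replicate 2 brought Ankrd1 past the threshold without a block (0.51, adjusted p = 0.0447).

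After 10 Gy at 24 h, 0 of the 10 genes passed in *A. cahirinus* without the block (background 3.73%, 1 member at an unadjusted p under 0.05, 1 by DESeq2) and 5 passed with it, all higher (background 27.6%). These were Ankrd1 (0.41 ± 0.10, adjusted p = 0.00147 with the block), Ccn2 (0.26, adjusted p = 0.00275), Ccn1 (0.25, adjusted p = 0.00676), Tead1 (0.16, adjusted p = 0.0275) and Ajuba (0.19, adjusted p = 0.0456). Ankrd1 without replicate 2 was called without a block (0.51, adjusted p = 0.0367). The irradiated groups at 10 and 20 Gy share their untreated libraries.

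Wild mice at 24 h gave 0 called members of 10 at either dose without the block (background 0% at both doses, 0 members at an unadjusted p under 0.05, 0 by DESeq2). With the block, Amotl2 alone passed after 20 Gy, lower in 4 of 4 pairs (-0.32 ± 0.21, adjusted p = 0.993 without and 0.0329 with the block, background 12.5%). After 10 Gy the library of replicate 1 stood apart from the other 3: it held 17.42 M counts, 17843 detected genes against 21846 to 22253, and 231.3 CPM of Amotl2 against 531.4 to 835.6 CPM. The same library held 2109 CPM of Ankrd1 against 317 to 458.9 CPM and 6903 CPM of Ccn2 against 1478 to 2604 CPM. With the block and all 4 cultures, 0 members passed after 10 Gy (background 0%). Without replicate 1 and with the block, a fit added after the data were seen, Amotl2 was lower after 10 Gy (-0.30, adjusted p = 0.0202, background 23%).

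**Figure D2:**
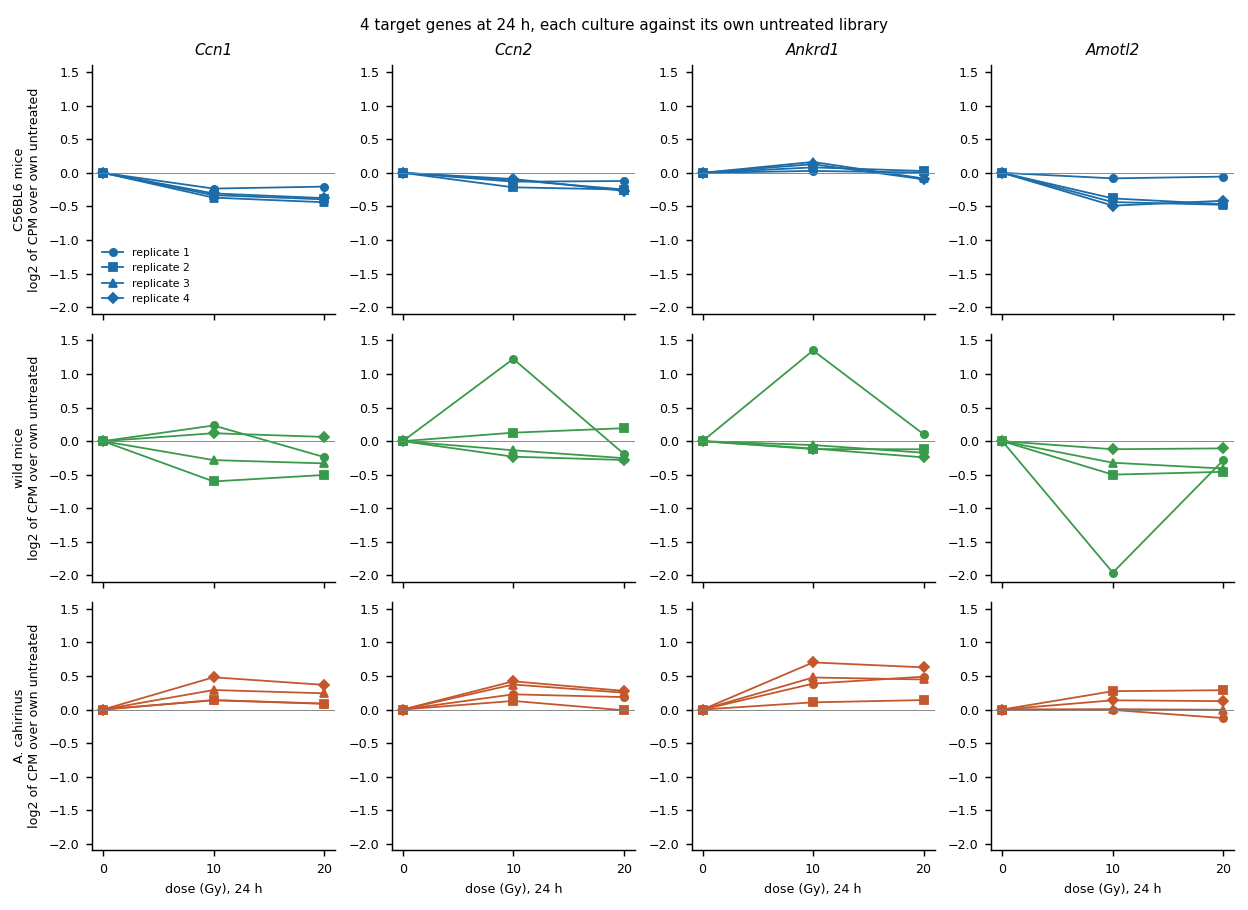
Log2 change of 4 targets in each culture against its own untreated library at 24 h (y axis), by dose in Gy (x axis), with 1 line per replicate number and 1 row per population. Ccn1 and Amotl2 lie below 0 in the 4 C56BL6 cultures, Ankrd1 lies above 0 in the 4 *A. cahirinus* cultures, and wild replicate 1 stands apart at 10 Gy.

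At 12 d after 20 Gy, Lats2, Tead1 and Yap1 rose in C56BL6 cells relative to untreated cells. Lats2, a kinase that inhibits YAP and is itself a YAP target, was at 69.49, 61.13, 65.65 and 58.25 CPM untreated and at 115.9, 124.3, 109.5 and 96.18 CPM after 20 Gy. The groups did not overlap, the log2 fold change was 0.85 ± 0.10 (edgeR adjusted p = 0.00146), and the call held in each of the 4 fits that left out 1 replicate number. Tead1 went from 242.6, 174.1, 193.4 and 187.3 CPM to 320.5, 329.7, 294.7 and 282.1 CPM, again without overlap (0.66 ± 0.12, adjusted p = 0.00578). Its call was lost without replicate 3 (adjusted p = 0.0573). Yap1 rose from 218.5, 175.9, 183.2 and 178.7 CPM to 247, 244.7, 239.1 and 221.4 CPM (0.37 ± 0.09, adjusted p = 0.0181), and was called only in the fit without replicate 1 among the 4 (adjusted p of 0.116, 0.128 and 0.0762 without replicates 2, 3 and 4). Other markers moved in the same comparison. The 8 fibroblast markers summed to 19800 to 23900 CPM untreated and 10500 to 11500 CPM after 20 Gy, with 3 of 8 genes lower without overlap, Col1a1 and Col1a2 among them. The 4 leukocyte markers summed to 6.57 to 9.27 and 15.5 to 21.7 CPM, with Cd68 and Csf1r higher without overlap and Ptprc, the pan-leukocyte marker, at no count untreated and at most 0.1636 CPM after 20 Gy. The 3 adipocyte markers summed to 4.53 to 19.8 and 0.354 to 1.1 CPM, and detected genes numbered 20618 to 21453 untreated and 24466 to 25727 after 20 Gy. The part of these shifts in the results of the 10 genes was not tested.

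The targets Ankrd1 and Ccn2 showed the largest log2 fold changes of the 10 genes in C56BL6 cells at 12 d. With all 4 cultures they passed edgeR's test with the block and not without it, and they passed DESeq2 without a block (adjusted p = 0.0405 for Ankrd1 and 0.0172 for Ccn2). Ankrd1 was at 108.4, 32.2, 26.79 and 16.88 CPM untreated and at 277.8, 132.5, 71.93 and 52.4 CPM after 20 Gy. It was higher in 4 of 4 pairs, while the groups overlapped because untreated replicate 1 exceeded irradiated replicates 3 and 4. The log2 fold change was 1.58 ± 0.71 (edgeR adjusted p = 0.131 without and 0.000261 with the block). Ccn2 was at 1047, 382.6, 544.8 and 235 CPM untreated and at 2611, 1193, 1145 and 722.7 CPM after 20 Gy. It too was higher in 4 of 4 pairs (1.40 ± 0.53, adjusted p = 0.0841 without and 0.000341 with the block). With all 4 cultures Axl passed with the block and not without it, and was higher in 3 of 4 pairs (0.28 ± 0.22, adjusted p = 0.376 without and 0.0372 with the block).

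In count, 3 of 10 genes were higher and 0 lower without the block (background 26.5%), and 6 were higher and 0 lower with it (background 47.5%), so the unpaired share is close to that of all genes. Their median log2 fold change was 0.33, against -0.01 over all 15119 genes tested. Ccn1 (-0.07 ± 0.28, adjusted p = 0.875), Amotl2 (0.08 ± 0.10, adjusted p = 0.562), Wwtr1 (0.15 ± 0.09, adjusted p = 0.243) and Ajuba (-0.07 ± 0.46, adjusted p = 0.928) passed neither fit. Untreated replicate 1 held 834 CPM of keratinocyte markers, and it also held 110.3 CPM of Ajuba and 1051 CPM of Axl, against 33.81 to 37.24 and 582.8 to 587.4 CPM in the other untreated cultures. Without replicate 1 the 6 genes Yap1, Tead1, Ccn2, Ankrd1, Lats2 and Axl passed without a block (background 40%), with Ccn2 at 1.43 (adjusted p = 0.0119) and Ankrd1 at 1.80 (adjusted p = 0.00917). Keratinocyte markers summed to at most 3.95 CPM in those cultures, and the part of keratinocytes in these values was not tested.

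The 10 Gy libraries of C56BL6 mice were set against the same untreated libraries. Without the block 3 of 10 genes were higher and 0 lower (background 20.9%): Lats2 (0.77 ± 0.10, adjusted p = 0.00298), Tead1 (0.48 ± 0.13, adjusted p = 0.0342) and Yap1 (0.34 ± 0.09, adjusted p = 0.0338). With the block 6 were higher (background 38.8%), the others being Ankrd1, Ccn2 and Axl. Without the block their sizes were 1.56 ± 0.66, 1.41 ± 0.48 and 0.28 ± 0.23. With it they were 1.72 ± 0.16 (edgeR adjusted p = 0.000226), 1.53 ± 0.16 (adjusted p = 0.000361) and 0.32 ± 0.10 (adjusted p = 0.0343). Fibroblast markers summed to 10700 to 11500 CPM after 10 Gy, leukocyte markers to 15 to 23.8 CPM and adipocyte markers to 0.404 to 1.84 CPM, each without overlap with the untreated sums, and their part was not tested. Lats2 alone kept its call in all 4 fits that left out a replicate number: Tead1 and Yap1 lost it without replicates 2, 3 or 4. Between 20 and 10 Gy, 0 of the 10 genes passed without or with the block (backgrounds of 0% and 0.297%, 0 members at an unadjusted p under 0.05, 0 by DESeq2).

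In wild mice at 12 d, 0 of the 10 genes passed after 20 Gy without or with the block (backgrounds of 0.0694% and 15.4%), 0 at an unadjusted p under 0.05 and 0 by DESeq2. After 10 Gy (backgrounds of 0.264% and 12.7%), and between the doses (backgrounds of 0% and 0.257%), these counts were likewise 0. Without replicate 1, 0 members passed in all 3 comparisons, without the block (background 0% in each) or with it (backgrounds of 2%, 2.52% and 0.0538%). Spread was wide: untreated Ccn2 was at 1679, 2720, 297.6 and 2046 CPM and Ankrd1 at 203.9, 433.8, 176.2 and 289.6 CPM. After 20 Gy they stood at 2601, 2444, 1263 and 2318 CPM and at 428, 337.9, 478.2 and 403.6 CPM. Both were higher in 3 of 4 pairs, the exception being replicate 2, and the groups overlapped (Ccn2 0.38 ± 0.58, adjusted p = 0.839; Ankrd1 0.60 ± 0.29, adjusted p = 0.415). Lats2 was higher in 4 of 4 pairs (0.44 ± 0.34, adjusted p = 0.633), with the largest step in replicate 3, which went from 105.3 to 190.2 CPM. Detected genes numbered 19278 to 20667 untreated and 21873 to 24882 after 20 Gy, while fibroblast marker sums overlapped (10100 to 67000 and 10800 to 24300 CPM). The difference from C56BL6 mice is tested below.

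In *A. cahirinus* at 12 d, Ankrd1 rose after 20 Gy by 1.27 ± 0.25 on the log2 scale (edgeR adjusted p = 0.00676 without and 0.000135 with the block). It was at 1343, 801.2, 1325 and 1369 CPM untreated, at 2508, 1636, 2138 and 2566 CPM after 10 Gy and at 3332, 1845, 3127 and 3316 CPM after 20 Gy. Each culture was higher at each higher dose, and no 20 Gy library overlapped the untreated ones. Muscle marker sums were 2140, 1050, 2360 and 2180 CPM untreated and 2540, 519, 2650 and 2720 CPM after 20 Gy. In replicate 2 the muscle sum went from 1050 to 519 CPM while Ankrd1 went from 801.2 to 1845 CPM. In each of the other cultures both the muscle sum and Ankrd1 were higher after 20 Gy than untreated. The part of muscle-lineage cells in the level of Ankrd1, a gene known from striated muscle, was not tested. Without replicate 1 the adjusted p was 0.051 (log2 fold change 1.26), and without each other number the gene was called. The 4 endothelial markers summed to 0.584 to 1.93 CPM untreated and 2.81 to 4.85 CPM after 20 Gy, the 4 leukocyte markers to 1.24 to 2.25 and 2.98 to 5.52 CPM, and detected genes numbered 14921 to 15222 and 15856 to 16209. The part of these shifts was not tested.

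**Figure D3:**
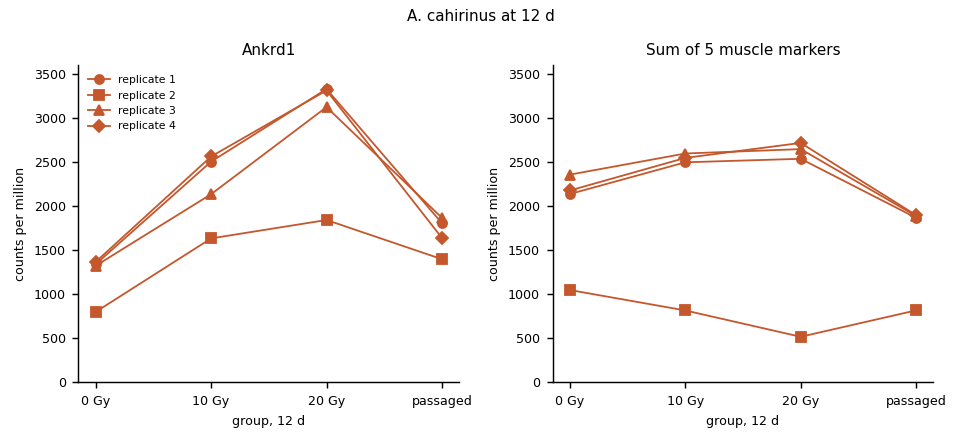
Ankrd1 (left) and the sum of 5 muscle markers (right) in the *A. cahirinus* libraries at 12 d, both in CPM on axes from 0, with 1 line per replicate number. In replicate 2 the marker sum is lowest at 20 Gy (519 CPM) while Ankrd1 is highest there (1845 CPM). In each of the other replicates both are higher at 20 Gy than untreated.

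Of the 10 genes, 1 was higher and 0 lower in *A. cahirinus* after 20 Gy at 12 d without the block (background 31.8%), and 4 were higher and 1 lower with it (background 49.2%). The 4 were Ankrd1, Yap1 (0.36 ± 0.15, adjusted p = 0.108 without and 0.00714 with the block), Axl (0.43 ± 0.22, adjusted p = 0.16 and 0.00465) and Amotl2 (0.25 ± 0.13, adjusted p = 0.167 and 0.0291). Ccn1 was lower in 4 of 4 pairs, going from 839, 1490, 939.7 and 875.2 CPM to 685.6, 1157, 609.7 and 668 CPM (-0.41 ± 0.25, adjusted p = 0.247 and 0.0097). In each of these groups replicate 2 was the highest for Ccn1, which made the groups overlap. Without replicate 2 and without a block (background 49.4%), 4 genes were called: Ankrd1, Yap1 (0.33, adjusted p = 0.0329), Axl (0.45, adjusted p = 0.00215) and Ccn1 (-0.42, adjusted p = 0.0042). Ccn2 was at 1387, 3204, 1392 and 1240 CPM untreated and at 1734, 3783, 1320 and 1236 CPM after 20 Gy, with 2 of 4 pairs higher (0.16 ± 0.43, adjusted p = 0.804). Ccn1 and Ankrd1, both in common use as YAP readouts, had opposite signs in each of these 4 pairs.

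After 10 Gy at 12 d, 0 of the 10 genes passed in *A. cahirinus* without the block (background 2.87%, 1 member at an unadjusted p under 0.05, 1 by DESeq2) and 3 did with it (background 27.5%). Ankrd1 (0.87 ± 0.20, adjusted p = 0.0623 without and 0.00091 with the block) and Axl (0.34 ± 0.24, adjusted p = 0.459 and 0.0247) were higher, and Ccn1 (-0.29 ± 0.27, adjusted p = 0.564 and 0.0291) was lower. Between 20 and 10 Gy, Ankrd1 alone passed, with the block (0.40 ± 0.24, adjusted p = 0.501 without and 0.0314 with the block, backgrounds of 0.457% and 17.9%, 0 members at an unadjusted p under 0.05 and 0 by DESeq2 without the block). Leaving out replicate 2, Ankrd1 was called without a block in both comparisons (0.83, adjusted p = 0.00706, and 0.44, adjusted p = 0.0344).

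**Figure D4:**
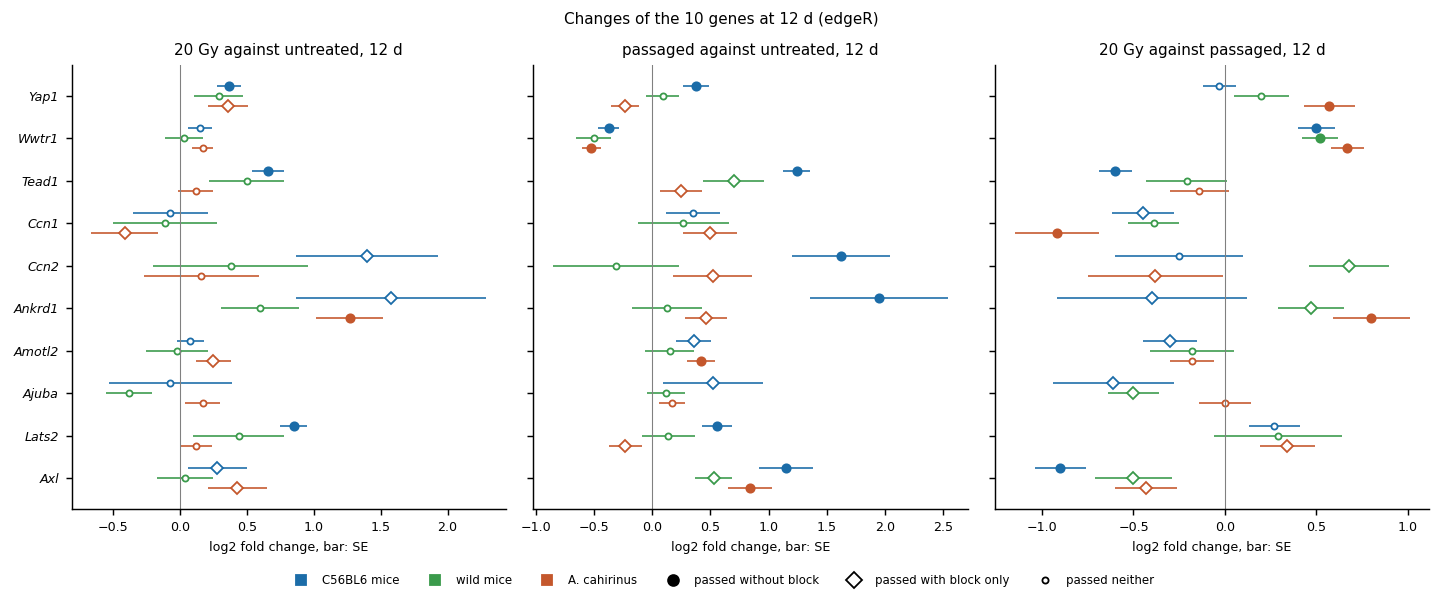
Log2 fold changes of the 10 genes at 12 d (x axis, bars are standard errors of the edgeR fit without a block) in 3 comparisons of 4 against 4 libraries, by population. Filled circles passed an adjusted p of 0.05 without the replicate block, diamonds with the block only, and small open circles neither; Wwtr1 lies below 0 in passaged against untreated cells and above 0 in 20 Gy against passaged cells in all 3 populations.

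Passaged untreated cells at 12 d were compared with untreated cells of the same time that were not labelled as passaged. The proliferation marker Mki67 was at 191.4, 143.7 and 110.2 CPM on average in passaged cells of C56BL6 mice, wild mice and *A. cahirinus*, and at 22.09, 24.81 and 57.85 CPM in the untreated ones. In C56BL6 mice 6 of the 10 genes were higher and 1 lower (background 49.6%), with a median log2 fold change of 0.54 against -0.02 over all 14415 genes tested. Tead1 rose by 1.24 ± 0.12 (adjusted p = 0.000308), to 441.3, 518.5, 488.8 and 431.4 CPM, and Axl by 1.15 ± 0.23 (adjusted p = 0.00403), to 1825, 1629, 1309 and 1460 CPM. Both groups of libraries lay wholly above the untreated ones, and both calls held in each of the 4 fits without a replicate number. Ankrd1 (1.95 ± 0.59, adjusted p = 0.0252), Ccn2 (1.62 ± 0.42, adjusted p = 0.0128), Lats2 (0.56 ± 0.13, adjusted p = 0.00803) and Yap1 (0.38 ± 0.11, adjusted p = 0.0215) also rose. Of these, Ccn2 lost its call without replicate 2 or 3 (adjusted p = 0.0848 and 0.0653), and the other 3 lost it without replicate 2, 3 or 4 (adjusted p from 0.0511 for Lats2 to 0.13 for Yap1).

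Wwtr1 was the single gene to fall, from 158.5, 181.7, 178.9 and 167.9 CPM to 114.8, 144.5, 139.9 and 130.9 CPM (-0.37 ± 0.09, adjusted p = 0.00884), with no overlap and with adjusted p of 0.0525 and 0.0571 without replicates 3 and 4. The fitted changes of the genes of the paralogous coactivators TAZ and YAP thus had opposite signs in this comparison. Yap1 was higher in 3 of 4 pairs and its groups overlapped. In replicate 1 it went from 218.5 CPM untreated to 203 CPM passaged. With the block 8 genes were higher and 1 lower (background 60.1%), adding Ajuba and Amotl2. Ajuba was at 0.52 ± 0.43 without and 0.65 ± 0.15 with the block (edgeR adjusted p = 0.00906 with it). Amotl2 was at 0.36 ± 0.15 without and 0.34 ± 0.11 with the block (edgeR adjusted p = 0.0402 with it). Without replicate 1 and without the block all 10 genes were called, 9 higher and Wwtr1 lower, where 58.5% of all genes were called. Adipocyte markers summed to 0.175 to 0.799 CPM in the passaged libraries and endothelial markers to 3.67 to 5.61 CPM, against 4.53 to 19.8 and 6.07 to 18.9 CPM untreated, and their part was not tested.

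In *A. cahirinus* 2 genes were higher in passaged cells and 1 lower (background 25.8%). Wwtr1 again fell, from 272.6, 287, 282.7 and 269.4 CPM to 183.7, 224.2, 192.8 and 184.6 CPM, with no overlap (-0.52 ± 0.08, adjusted p = 0.0032) and with its call held in each of the 4 fits without a replicate number. Axl rose from 323.3, 536.9, 311.7 and 358.6 CPM to 738.2, 823.7, 603.6 and 624.5 CPM (0.84 ± 0.19, adjusted p = 0.0156), and Amotl2 rose by 0.42 ± 0.12 (adjusted p = 0.0398). Each of these 2 rises was called only in the fit without replicate 2 among the 4 (adjusted p up to 0.119 for Axl and 0.174 for Amotl2). With the block 6 genes were higher and 3 lower (background 49.5%). The further genes were Ccn1 (0.50 ± 0.23, adjusted p = 0.000747), Ccn2 (0.52 ± 0.34, adjusted p = 0.00176), Ankrd1 (0.46 ± 0.18, adjusted p = 0.00175) and Tead1 (0.25 ± 0.18, adjusted p = 0.0205), all higher. Lats2 (-0.23 ± 0.14, adjusted p = 0.00936) and Yap1 (-0.23 ± 0.12, adjusted p = 0.0147) were lower with the block, where both were higher in C56BL6 mice, a difference that was not tested. Muscle marker sums were 1870, 819, 1890 and 1900 CPM in the passaged libraries, lower than the untreated sums in 4 of 4 pairs. Fibroblast markers summed to 18900 to 25900 CPM passaged and 26500 to 31500 CPM untreated, adipocyte markers to 2.97 to 7.45 and 11.8 to 20.1 CPM, and leukocyte markers to 3.71 to 4.61 and 1.24 to 2.25 CPM. None of these groups of sums overlapped except the muscle sums, and their part in these values was not tested.

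Wild mice gave 0 called members of 10 in passaged cells without the block (background 10.7%, 3 at an unadjusted p under 0.05, 2 by DESeq2), and 2 higher with it (background 31.9%). These were Axl (0.53 ± 0.16, adjusted p = 0.0746 without and 0.0286 with the block) and Tead1 (0.70 ± 0.26, adjusted p = 0.119 and 0.0473). Wwtr1 was at 154.4, 190.8, 135.5 and 135.8 CPM untreated and at 114.1, 93.5, 119.2 and 112 CPM passaged, with no overlap (-0.50 ± 0.15, adjusted p = 0.0658 without and 0.0597 with the block, DESeq2 adjusted p = 0.0176). Without replicate 1, 0 of the 10 genes passed with or without the block (backgrounds of 13.7% and 0%), with Wwtr1 at -0.52 and Axl at 0.51.

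Cells 12 d after 20 Gy were also set against the passaged cells, which shared the treated libraries with the first and the passaged libraries with the second comparison above. Mki67 averaged 7.273 CPM in C56BL6 mice, 10.08 CPM in wild mice and 4.301 CPM in *A. cahirinus* after 20 Gy. In passaged cells it averaged 191.4, 143.7 and 110.2 CPM in the same order, and the part of this difference was not tested. Wwtr1 was higher after 20 Gy than in passaged cells in all 3 populations, in 4 of 4 pairs each and without overlap. Against untreated cells of 12 d it passed in no population, without or with the block. Its means after 20 Gy and untreated were 185.8 and 171.8 CPM in C56BL6 mice, 154.7 and 154.1 CPM in wild mice and 310.8 and 277.9 CPM in *A. cahirinus*. The log2 fold change against passaged cells was largest in *A. cahirinus* (0.67 ± 0.09, adjusted p = 0.000919), then 0.52 ± 0.10 in wild cells (adjusted p = 0.0161) and 0.50 ± 0.10 in C56BL6 cells (adjusted p = 0.00523), and the differences between populations were not tested. The 20 Gy libraries held 179.1, 214.7, 181.8 and 167.7 CPM in C56BL6 mice, 153.5, 155.8, 156.1 and 153.4 CPM in wild mice and 308, 348.8, 287.1 and 299.4 CPM in *A. cahirinus*. The call held in each fit without a replicate number in C56BL6 mice and *A. cahirinus*. In wild mice it was lost without replicate 1 (0.53, adjusted p = 0.12), 2 (adjusted p = 0.0581) or 4 (adjusted p = 0.126), and with the block and without replicate 1 it passed (0.53, adjusted p = 0.0142).

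In C56BL6 mice 1 gene was higher and 2 lower in this comparison (background 41.6%): Tead1 (-0.60 ± 0.09, adjusted p = 0.00115) and Axl (-0.90 ± 0.14, adjusted p = 0.00161) were below the passaged libraries without overlap, in each fit without a replicate number as well. With the block 1 was higher and 6 lower (background 56.1%). The further ones were Ajuba (-0.61 ± 0.33, adjusted p = 0.000215), Ankrd1 (-0.40 ± 0.52, adjusted p = 0.016), Ccn1 (-0.45 ± 0.17, adjusted p = 0.0237) and Amotl2 (-0.30 ± 0.15, adjusted p = 0.0487). Without replicate 1 and without a block 7 genes were called (background 48.8%), the additions being Ccn1 (-0.64), Ccn2 (-0.69), Amotl2 (-0.37) and Ajuba (-0.69). Fibroblast markers summed to 10500 to 11500 CPM after 20 Gy and 17400 to 24300 CPM passaged, with 3 of 8 genes higher and 3 lower without overlap. Endothelial markers summed to 7.35 to 29.7 and 3.67 to 5.61 CPM, and melanocyte or Schwann markers to 1.78 to 3.33 and 0.614 to 1.12 CPM. Detected genes numbered 24466 to 25727 and 21227 to 22028, and the part of these shifts was not tested.

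In *A. cahirinus* 3 genes were higher after 20 Gy than in passaged cells and 1 was lower (background 42.5%). Yap1 (0.57 ± 0.14, adjusted p = 0.0107) and Ankrd1 (0.80 ± 0.21, adjusted p = 0.0173) were higher beside Wwtr1. Ccn1 was lower, at 685.6, 1157, 609.7 and 668 CPM against 1419, 1986, 1367 and 1175 CPM (-0.92 ± 0.23, adjusted p = 0.0129), with no overlap. Without replicate 1 or 3 these 3 calls were lost (adjusted p of 0.0777 and 0.063 for Yap1, 0.0908 and 0.0776 for Ankrd1, 0.102 and 0.0743 for Ccn1), and Ankrd1 also lost it without replicate 4 (adjusted p = 0.099). With the block 4 were higher and 3 lower (background 56%), the additions being Lats2 (0.34 ± 0.15, adjusted p = 0.00738), Ccn2 (-0.38 ± 0.37, adjusted p = 0.0307) and Axl (-0.43 ± 0.17, adjusted p = 0.00882). Mean Ankrd1 after 20 Gy (2905 CPM) was above both the untreated (1210 CPM) and the passaged mean (1680 CPM) here, while in C56BL6 mice it (133.7 CPM) lay between them (46.06 and 177.7 CPM). In wild mice the 20 Gy mean (411.9 CPM) was likewise above the untreated (275.9 CPM) and passaged means (303.6 CPM). These orders of means were not tested between populations. In *A. cahirinus* adipocyte markers summed to 9.03 to 43.8 CPM after 20 Gy and 2.97 to 7.45 CPM passaged. Endothelial markers summed to 2.81 to 4.85 and 0.35 to 1.88 CPM, and detected genes numbered 15856 to 16209 and 14872 to 15067. The other marker sums overlapped, and the part of these shifts was not tested.

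In wild mice Wwtr1 was the 1 gene called (background 10.5%), and 3 genes were higher and 2 lower with the block (background 38%). The further calls were Ankrd1 (0.47 ± 0.18, adjusted p = 0.0139) and Ccn2 (0.68 ± 0.22, adjusted p = 0.0298), higher, and Ajuba (-0.50 ± 0.14, adjusted p = 0.00183) and Axl (-0.50 ± 0.21, adjusted p = 0.0101), lower. With the block and without replicate 1, Wwtr1, Ajuba and Axl were called (background 28.2%), and Ankrd1 and Ccn2 were not. Without replicate 3, 5 genes passed without a block (background 13.1%), with Ccn2 at 0.85 (adjusted p = 0.0109). Fibroblast markers summed to 10800 to 24300 CPM after 20 Gy and 27500 to 35800 CPM passaged. Keratinocyte markers summed to 0.149 to 1.39 and 0 to 0.121 CPM, and melanocyte or Schwann markers to 1.93 to 3.73 and 1.13 to 1.54 CPM. Detected genes numbered 21873 to 24882 and 20037 to 20987, and the part of these shifts was not tested.

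The change at 20 Gy was then compared between populations as an interaction, with sizes as *A. cahirinus* minus mice or wild minus C56BL6 mice. At 12 d Lats2 changed less in *A. cahirinus* than in C56BL6 mice (-0.72 ± 0.17, adjusted p = 0.011 without and 0.000423 with the block). Its *A. cahirinus* libraries held 81.64, 99.57, 80.91 and 80.72 CPM untreated and 83.61, 117.1, 87.51 and 84.05 CPM after 20 Gy, overlapping (0.12 ± 0.12, adjusted p = 0.482), beside the rise of 0.85 in C56BL6 mice. It was the 1 member of 10 called without the block (background 18.8%), and it lost the call without replicate 3 of both populations (-0.75, adjusted p = 0.0945). With the block 3 were lower (background 38%), the others being Ccn2 (-1.24 ± 0.74, adjusted p = 0.26 without and 0.000287 with the block) and Tead1 (-0.54 ± 0.19, adjusted p = 0.0638 and 0.0075).

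At 24 h 0 members differed between *A. cahirinus* and C56BL6 mice without the block (background 2.09%, 1 at an unadjusted p under 0.05, 0 by DESeq2) and 4 did with it, all higher in *A. cahirinus* (background 16.8%). They were Ccn1 (0.53 ± 0.21, adjusted p = 0.319 without and 0.000167 with the block), Ccn2 (0.35 ± 0.36, adjusted p = 0.842 and 0.00173), Ankrd1 (0.43 ± 0.36, adjusted p = 0.794 and 0.00214) and Amotl2 (0.45 ± 0.22, adjusted p = 0.483 and 0.0103). For Ccn1 the pairs pointed apart, with 0 of 4 higher in C56BL6 mice and 4 of 4 higher in *A. cahirinus*. The proliferation marker Mki67 also changed differently, by -1.95 ± 0.18 in *A. cahirinus* and -0.14 ± 0.13 in C56BL6 mice. Its difference was -1.82 ± 0.24 (edgeR interaction without the block, adjusted p = 0.00221), and its part in the 4 results was not tested. Against wild mice 0 passed without the block (background 0%, 0 at an unadjusted p under 0.05, 0 by DESeq2), and Ccn1 (0.43 ± 0.26, adjusted p = 0.0367) and Ankrd1 (0.46 ± 0.44, adjusted p = 0.0108) were higher in *A. cahirinus* with it (background 7.25%).

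At 12 d against wild mice, 0 members passed without the block (background 3.35%, 1 at an unadjusted p under 0.05, 0 by DESeq2) and Ajuba passed with it, higher in *A. cahirinus* (0.56 ± 0.21, adjusted p = 0.156 without and 0.017 with the block, background 23.3%). Without replicate 1 of both, a fit run only without the block, 0 members and 0% of all genes passed. Whether the block call of Ajuba rests on these libraries was therefore not tested. Between wild and C56BL6 mice 0 members passed at either time without the block (background 0% at both times) or with it (backgrounds of 0.647% at 24 h and 0.101% at 12 d), 0 at an unadjusted p under 0.05 and 0 by DESeq2. At 12 d without replicate 1 of both, a fit run only without the block, 0 members passed (background 0%). For Ccn2 at 12 d the difference was -1.02 ± 0.82 and for Ankrd1 -0.98 ± 0.80 (both adjusted p = 1), so the standard errors were close to the size of the differences. The comparisons of *A. cahirinus* with each mouse population share the *A. cahirinus* libraries.

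Other genes of the pathway were counted from lists, without the block except where it is named. At 12 d after 20 Gy, 31.8% of all genes tested were called in *A. cahirinus*, 26.5% in C56BL6 cells and 0.0694% in wild cells. In passaged against untreated cells the shares were 25.8%, 49.6% and 10.7% in the same order. Each list count below is read against these shares. Of 21 genes for Hippo kinases, adaptors and junction proteins, 7 rose and 2 fell in C56BL6 cells 12 d after 20 Gy (median log2 fold change 0.26, against -0.01 over all genes tested). In *A. cahirinus* 4 rose and 3 fell (median 0.13 against 0), a share close to the 31.8% of all genes, and in wild mice 0 passed (median 0.04 against -0.01, 2 at an unadjusted p under 0.05). With the block 11 of the 21 rose and 3 fell in C56BL6 cells (background 47.5%). In *A. cahirinus* 6 rose and 4 fell with it (background 49.2%), and in wild mice 2 rose and 2 fell (background 15.4%). Ptpn14, a phosphatase that binds YAP, rose in C56BL6 mice from 66.83 ± 16.4 to 131 ± 35.6 CPM (SD, n = 4; 1.01 ± 0.23, adjusted p = 0.014), while Stk3, which encodes the kinase MST2, fell (-0.55 ± 0.10, adjusted p = 0.00615). In *A. cahirinus* the atypical cadherin Fat4 rose (1.11 ± 0.31, adjusted p = 0.0266) and the LIM adaptor Wtip fell (-0.61 ± 0.15, adjusted p = 0.0177). In passaged C56BL6 cells 10 of the 21 rose and 5 fell (49.6% of all genes called), among them Wwc1, which encodes the LATS activator KIBRA (1.99 ± 0.36, adjusted p = 0.00281), and Fat4 (-1.99 ± 0.36, adjusted p = 0.00297). In passaged wild cells 2 rose and 0 fell (10.7% of all genes called), Wwc1 among them (1.97 ± 0.52, adjusted p = 0.0498), and in passaged *A. cahirinus* cells 0 rose and 3 fell (25.8% of all genes called).

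Of 15 further commonly used YAP and TAZ targets, 1 rose and 1 fell in C56BL6 cells 12 d after 20 Gy (median 0.37 against -0.01), below the 26.5% of all genes without the block. In wild mice 0 passed (2 at an unadjusted p under 0.05), and 5 rose and 1 fell in *A. cahirinus* (median 0.53 against 0), beside 31.8% of all genes. With the block 8 of the 15 rose and 3 fell in C56BL6 cells, above the 47.5% of all genes called in that fit. In *A. cahirinus* 8 rose and 1 fell with it (background 49.2%), and in wild mice 1 rose and 2 fell (background 15.4%). Asap1, an Arf GTPase-activating protein, rose in C56BL6 mice (0.90 ± 0.24, adjusted p = 0.0271), and Igfbp3, which binds insulin-like growth factors, fell from 239.8 ± 123 to 37.93 ± 27.3 CPM (SD, n = 4; -2.62 ± 0.58, adjusted p = 0.0135). In *A. cahirinus* Nt5e, the ecto-enzyme CD73, rose from 43.84 ± 14.6 to 168 ± 51.4 CPM (1.94 ± 0.26, adjusted p = 0.00127). In passaged cells 5 rose and 3 fell in C56BL6 mice, 1 rose and 0 fell in wild mice, and 3 rose and 2 fell in *A. cahirinus*, where 49.6%, 10.7% and 25.8% of all genes were called. Among list genes at or above 5 CPM, Igfbp3 had the lowest log2 fold change in C56BL6 mice again (-4.22 ± 0.78, adjusted p = 0.00316), Myof, a membrane repair protein, rose in wild mice (0.99 ± 0.21, adjusted p = 0.0282), and the kinase Nuak2 (1.15 ± 0.14, adjusted p = 0.00144) and the exchange factor Dock5 (1 ± 0.13, adjusted p = 0.00201) rose in *A. cahirinus*, where Gadd45a fell (-0.61 ± 0.11, adjusted p = 0.00711).

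Of 6 other TEAD and VGLL genes, 5 were tested in mice. At 12 d after 20 Gy, 1 of these 5 rose and 2 fell in C56BL6 cells (median -0.06 against -0.01, 26.5% of all genes called). In wild cells 0 passed (0.0694% of all genes called), and in *A. cahirinus* 0 of 6 rose and 2 fell (31.8% of all genes called). In passaged C56BL6 cells 3 rose and 1 fell (49.6% of all genes called), and Tead4 went from 2.094 ± 2.36 to 8.774 ± 4.23 CPM (SD, n = 4; 2.07 ± 0.70, adjusted p = 0.0384). In passaged *A. cahirinus* cells 1 of 6 rose and 2 fell (25.8% of all genes called), and Tead4 was among those that fell (-0.62 ± 0.17, adjusted p = 0.0291), a contrast between populations that was not tested. Of 10 serum response and actin genes, which share many inputs with YAP targets, 0 rose and 0 fell in C56BL6 cells 12 d after 20 Gy (26.5% of all genes called, 0 of the list at an unadjusted p under 0.05) and 4 rose in passaged ones (49.6% of all genes called). Against passaged cells 0 were higher and 7 lower after 20 Gy there (median -0.74 against 0.01), where 41.6% of all genes were called. The same comparison gave 0 higher and 0 lower in wild mice (median 0.03 against 0.02, 10.5% of all genes called). It gave 0 higher and 3 lower in *A. cahirinus* (median -0.18 against 0.01, 42.5% of all genes called). Against untreated cells, 0 rose and 2 fell in *A. cahirinus* 12 d after 20 Gy (31.8% of all genes called). Actg2, a smooth muscle actin gene, was among these 2 (-0.92 ± 0.27, adjusted p = 0.0303).

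Likeness of pattern was described over the 21 group means, centred within population and time, among 8981 genes. Such correlations rest on 4 replicate numbers per population and on shared libraries, and are given as a description. Within the 10 genes Ccn2 and Ankrd1 had a Pearson r of 0.83, Tead1 and Axl 0.83, Ajuba and Axl 0.80, and Wwtr1 and Ccn1 -0.88. The genes most like Ccn1 were Slc3a2, Hspa5 and Mars1 (r of 0.93 each). Those most like Ccn2 were Hk2 (0.91), Mrs2 (0.88) and Slc25a25 (0.88), and those most like Ankrd1 were Fxr2 (0.94), Hbegf (0.92) and Bdnf (0.92).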

How the data were processed

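Poly(A) RNA of 84 libraries was counted per gene. Per the file headers, the authors made the deposited counts with featureCounts 2.0.3, over Ensembl 108 gene models of GRCm39 for mice and the AcoCah2 annotation for *A. cahirinus*. Per the same headers, no strand setting was given and reads with several hits or several genes were left out. The submitters' processing notes also list Trim Galore and HISAT2. Of 56980 mouse identifiers, 56236 matched a symbol. The total count of a library lay between 25.55 and 52.86 M for *A. cahirinus*, between 17.42 and 35.98 M for wild and between 26.65 and 39.82 M for C56BL6 cells. Replicates differed beyond counting noise in all 126 pairs (variance ratio of at least 8.57).

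The counts were tested with edgeR 4.0.16 (R 4.3.3: filterByExpr, TMM, quasi-likelihood F-test), 4 against 4 libraries without a block, in 28 comparisons. P-values were Benjamini-Hochberg adjusted over all genes tested, with a threshold of 0.05. Each fold change is log2 with its standard error, taken as its size over the root of F. Both are of the fit without a block unless stated, also beside an adjusted p with the block. Changes at 20 Gy were compared between populations as interactions, over 18109 symbols found once in both tables. CPM used TMM-scaled library totals, and per-kb values the authors' deposited gene lengths. Replicate numbers pair the samples: library names repeat the same animal code, and same-numbered libraries deviated together (lowest correlation 0.36 over 21 comparisons; other numbers averaged -0.29 to -0.12). Wild replicate 1 at 12 d did not match its 24 h namesake, so the wild 12 d block rests on a doubtful label. Fits with the number as a block were alternatives, as were other size factors, no filter, DESeq2 1.42.0 and leaving out each number. The block without replicate 1 was added after the data were seen. Genes named from lists were the 2 largest rises and 2 largest falls that passed without the block, with a mean of at least 5 CPM, for 20 Gy or passaged against untreated cells at 12 d. The 10 members and all lists were chosen with earlier results of these data known. The fits were tested on simulated data.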

Additional observations from a re-analysis of the deposited data

Results flagged for a closer look

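Of 210 combinations of gene and group, 22 had 1 library far from the other 3, judged by its gap to the nearest library over the whole range of the group (Dixon's ratio, past its 95% critical value). Chance gives about 1 in 20.

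C56BL6 replicate 1, the culture with keratinocyte markers, stood apart in 5. It was low for Yap1 in untreated 24 h cells (227.5 CPM against 302.2 to 308.8, ratio 0.929) and in passaged cells (203 against 255.3 to 262.8, ratio 0.889). At 12 d it was high for Ajuba untreated (110.3 against 33.81 to 37.24, ratio 0.918) and for Axl untreated (1051 against 582.8 to 587.4, ratio 0.987) and after 20 Gy (1011 against 764.9 to 774.9, ratio 0.954). Replicate 4 was low for Tead1 after 10 Gy at 12 d (224.9 against 280.5 to 293.4, ratio 0.831).

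*A. cahirinus* replicate 2, the culture with the lowest muscle marker sums, stood apart in 9. It was low for Ankrd1 at 12 d untreated (801.2 against 1325 to 1369, ratio 0.939) and after 20 Gy (1845 against 3127 to 3332, ratio 0.892). It was high for Ccn2 (3204 against 1240 to 1392, ratio 0.878) and Lats2 (99.57 against 80.72 to 81.64, ratio 0.946) in untreated 12 d cells, and for Lats2 (117.1 against 83.61 to 87.51, ratio 0.865) and Axl (710.3 against 444.2 to 456.4, ratio 0.942) after 20 Gy at 12 d. It was also high for Amotl2 after 20 Gy at 24 h (513.6 against 399.5 to 412.4, ratio 0.874) and in passaged cells (602.7 against 469.4 to 489, ratio 0.836), and for Ajuba after 10 Gy at 24 h (176.2 against 129.7 to 135.3, ratio 0.861).

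In wild mice replicate 3 was high after 20 Gy at 12 d for Yap1 (277.3 against 187.9 to 196.9, ratio 0.88) and Axl (1460 against 884 to 944.7, ratio 0.868), and low for Ccn2 (1263 against 2318 to 2601, ratio 0.841). In passaged cells it was high for Yap1 (216.5 against 178 to 182.6, ratio 0.868). Replicate 1 was high for Ajuba in untreated 24 h cells (82.86 against 56.48 to 60.2, ratio 0.833), low for Ajuba after 10 Gy at 24 h (36.59 against 57.76 to 58.64, ratio 0.968) and high for Wwtr1 after 10 Gy at 12 d (168.7 against 142.4 to 145.2, ratio 0.886).

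The change of Lats2 at 12 d after 20 Gy differed between *A. cahirinus* and C56BL6 mice by -0.72 on the log2 scale (edgeR interaction, adjusted p = 0.011).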

How the results depend on the processing

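No called direction reversed under any alternative. With the replicate block, the number of the 10 genes called in C56BL6 mice went to 3 (20 Gy) and 2 (10 Gy) at 24 h, 6 and 6 at 12 d, and 7 for 20 Gy against passaged cells. In wild mice it went to 1 (20 Gy, 24 h), 2 (passaged) and 5 (20 Gy against passaged). In *A. cahirinus* it went to 3 and 5 at 24 h (20 and 10 Gy), 5 and 3 at 12 d, 1 between doses, 9 for passaged cells and 7 for 20 Gy against passaged cells. Between *A. cahirinus* and C56BL6 mice it went to 4 (24 h) and 3 (12 d), and against wild mice to 2 and 1. The block changed no other count by over 1.5 times. DESeq2 gave 1 and 1 at 24 h and 5 and 5 at 12 d in C56BL6 mice, 2 (passaged) and 4 (20 Gy against passaged) in wild mice, and 1 at 24 h for each dose and 1 at 12 d for 10 Gy in *A. cahirinus*. It also gave 2 for the 12 d difference from C56BL6 mice and 1 for untreated wild against C56BL6 cells. With no expression filter the counts were 1 (C56BL6, 10 Gy, 12 d) and 0 (wild, 20 Gy against passaged).

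The block without replicate 1, chosen after the data were seen, gave 3 and 5 at 24 h (the 5 being 3 lower and 2 higher; 21.8% and 23.7% of all genes called), 6 and 6 at 12 d (52.1% and 40.6%) and 8 for 20 Gy against passaged cells (53%) in C56BL6 mice. In wild mice it gave 1 and 1 at 24 h (16.6% and 23%) and 3 for 20 Gy against passaged cells (28.2%). The share of all genes called moved widely too when 1 replicate number at a time was left out, and is given in parentheses. In C56BL6 mice the count was 1 to 6 for 20 Gy at 12 d (7.18% to 40%), 1 to 6 for 10 Gy (1.9% to 35.7%), 2 to 10 for passaged cells (30.5% to 58.5%) and 3 to 7 for 20 Gy against passaged cells (25.6% to 48.8%). For wild 20 Gy against passaged cells it was 0 to 5 (0% to 13.1%). In *A. cahirinus* it was 0 to 1 at 24 h for 20 Gy (0.0229% to 5.1%) and 10 Gy (0% to 6.79%), 0 to 1 at 12 d for 10 Gy (0% to 10.6%) and between doses (0% to 14.6%), and 0 to 4 for 20 Gy at 12 d (12% to 49.4%). It was 1 to 7 there for passaged cells (6.03% to 38.8%) and 1 to 7 for 20 Gy against passaged cells (20% to 60.4%). It was 0 to 1 for the 12 d differences of *A. cahirinus* from C56BL6 (4.33% to 17.1%) and wild mice (0% to 5.75%) and for untreated wild against C56BL6 cells (2.07% to 4.33%). Other size factors shifted the median of all genes by at most 0.034 (log2) and ended no call. Causes of these changes were not tested.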
